A study of Mus musculus with 117 samples.

Results

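The C57BL/6J private chromatin states are the stretches of hepatocyte chromatin in which this strain stood alone among 9 inbred mouse strains. Chromosomes 1 to 19 were divided into bins of 200 bp, and a bin was private where the other 8 strains all carried the same chromatin state and C57BL/6J carried another. The rule found 79623 private bins of 12313718 autosomal bins, which is 0.647% of them and 15.92 Mb of sequence. The cells were hepatocytes, the metabolic cells of the liver, of female mice 12 weeks old. C57BL/6J was set against 5 other laboratory strains, DBA/2J, NZO/HlLtJ, 129S1/SvImJ, NOD/ShiLtJ and A/J, and 3 strains descended from recently caught wild mice, WSB/EiJ, PWK/PhJ and CAST/EiJ, and the labels name no treatment or engineered allele. Each strain had 13 libraries of chromatin immunoprecipitation sequencing (ChIP-seq), covering H3K4me1, H3K4me3, H3K27ac and H3K27me3 in 3 mice each and 1 input. The files hold 1 segmentation per strain, in which the autosomes are cut into segments of 14 numbered states, so there is no value per mouse and no spread between mice of a strain.

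C57BL/6J is the inbred strain from which the mouse reference genome was assembled, and it is the most used laboratory strain. A chromatin state is a recurring combination of histone marks. H3K4me3 is known for active gene starts, H3K4me1 for enhancers and the flanks of starts, H3K27ac for active starts and enhancers, and H3K27me3 for genes held silent by Polycomb proteins. Which marks make up each numbered state is not given in the sources used here, so a state is described only by where it lay. State 14 covered 78.23% of the autosomal bins of C57BL/6J and 76.41% ± 1.436 of those of the other strains (SD, n = 8), and state 13 covered 9.398% and 11.26% ± 1.288. Of the bins of state 3, 58.11% ± 3.055 lay within 1 kb of a listed gene start (SD, n = 9 strains), and of those of state 1 15.55% ± 1.343. For state 4 this was 1.190% ± 0.1127, for state 2 0.9592% ± 0.08100 and for state 14 0.5706% ± 0.02297.

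The labelled cell type was checked at the starts of marker genes. Of 66 bins at the starts of 5 hepatocyte markers, 98.48% were in states 1, 2 or 3 in C57BL/6J, and 90.91% to 100% in the other strains. Of 56 bins at 5 Kupffer cell and leukocyte markers, 0% were in these states in C57BL/6J and 0% to 8.929% in the others. At endothelial markers the share was 4.545% in C57BL/6J, with a range of 0% to 34.09% elsewhere. At stellate cell and bile duct markers it was 14.55%, against a median of 14.55% over the others.

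Promoter sequence is shown for 4 genes in which every bin under the printed bases was private to C57BL/6J, 1 or more for each of the leading changes of state. Each is the run of 250 bases before the RefSeq start, 5′ to 3′ on the gene's strand, from assembly GRCm38.p6 (mm10), and capitals mark the CG dinucleotides, the sites of DNA methylation in mammals. Cd3e (chr9:45009612-45009861, minus strand) encodes a chain of the T cell receptor complex, and its upstream bins were in state 13 in C57BL/6J and state 14 elsewhere. Prss34 (chr17:25298144-25298393, plus strand), a serine protease of mast cells and basophils, had the same change. Nxnl1 (chr8:71566650-71566899, minus strand), a rod-derived cone viability factor of the retina, was in state 4 against state 14. Skint8 (chr4:111919305-111919554, plus strand), of a family of immunoglobulin-like proteins of the skin and thymus, was in state 14 against state 13.
Cd3e: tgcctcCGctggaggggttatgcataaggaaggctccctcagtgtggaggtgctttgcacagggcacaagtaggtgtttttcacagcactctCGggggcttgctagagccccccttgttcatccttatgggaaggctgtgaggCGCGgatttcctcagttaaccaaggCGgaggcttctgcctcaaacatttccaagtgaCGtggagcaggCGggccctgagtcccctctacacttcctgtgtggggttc
Prss34: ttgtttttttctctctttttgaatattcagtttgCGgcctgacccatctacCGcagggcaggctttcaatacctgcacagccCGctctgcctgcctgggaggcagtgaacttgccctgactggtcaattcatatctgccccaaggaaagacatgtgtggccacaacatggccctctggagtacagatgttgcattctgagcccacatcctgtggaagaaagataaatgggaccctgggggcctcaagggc
Nxnl1: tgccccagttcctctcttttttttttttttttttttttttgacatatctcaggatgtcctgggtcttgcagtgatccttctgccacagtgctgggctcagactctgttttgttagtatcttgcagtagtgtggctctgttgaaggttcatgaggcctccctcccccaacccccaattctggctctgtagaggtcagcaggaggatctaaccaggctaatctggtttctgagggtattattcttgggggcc
Skint8: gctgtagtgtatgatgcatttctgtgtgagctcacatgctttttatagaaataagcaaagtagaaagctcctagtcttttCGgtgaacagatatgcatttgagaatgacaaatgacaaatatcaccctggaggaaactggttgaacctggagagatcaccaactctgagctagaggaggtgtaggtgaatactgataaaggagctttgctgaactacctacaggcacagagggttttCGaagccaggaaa
These 4 promoters held 7, 3, 0 and 2 CG dinucleotides, in the order printed. The median was 10 over 20085 promoters of autosomal protein-coding genes (quartiles 3 and 19), and 11 over the 321 promoters that held a private bin (quartiles 4 and 20). On either strand, the letters TATAAA occurred in 8.411% of the 321 promoters and in 11.71% of all. CCAAT occurred in 34.89% and 35.28%, and CACGTG in 8.100% and 6.692%. The motifs are given as a description of these 250 bases, and the 321 are among the 20085.

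C57BL/6J had the fewest private bins of the 9 strains. Applied to each of the other strains in turn, the same rule gave 95015 bins in DBA/2J, 101333 in NZO/HlLtJ, 104835 in 129S1/SvImJ, 165924 in A/J, 185701 in NOD/ShiLtJ, 248051 in WSB/EiJ, 289622 in CAST/EiJ and 561176 in PWK/PhJ. The other 8 strains averaged 1.778% ± 1.262 of autosomal bins (SD, n = 8), and their lowest was 0.7716% in DBA/2J. The difference of C57BL/6J from their mean was -1.132 percentage points and did not pass (exact two-sided permutation test over strains, p = 0.222). With 1 strain against 8 the smallest p this test can give is 0.111, so no difference between C57BL/6J and the other strains could pass 0.05. Over the 32 measures compared in this way the smallest p was 0.111, for 3 of them, and the smallest Benjamini-Hochberg adjusted p was 0.646. The 9 values are not independent, since each strain also serves as one of the others for the rest.

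**Figure D1:**
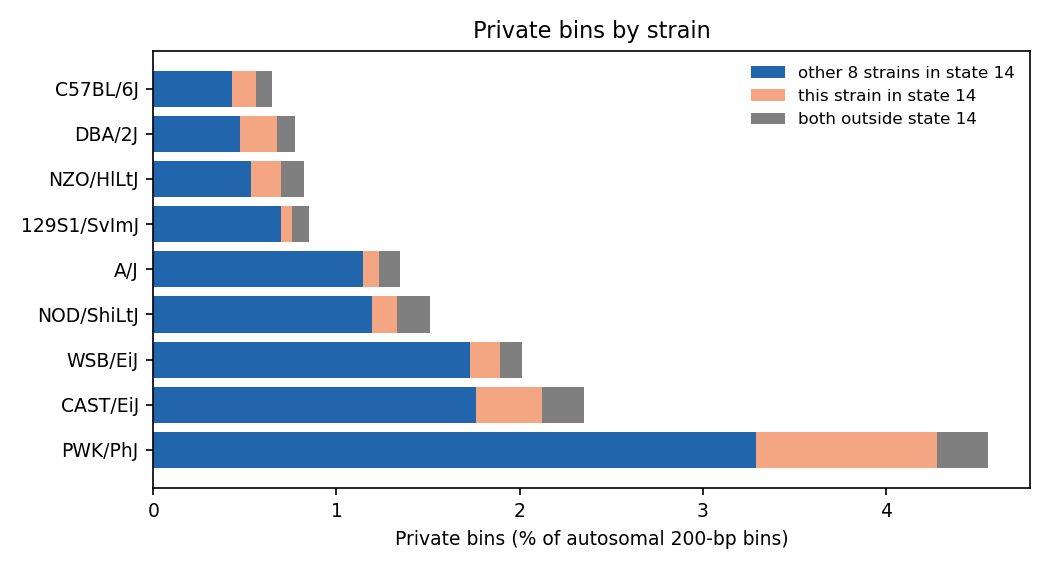
Private bins of each strain as a percentage of 12313718 autosomal bins of 200 bp, with each bar split by whether the other 8 strains, the strain itself or neither was in state 14. C57BL/6J has the shortest bar, at 0.647%, and PWK/PhJ the longest, at 4.557%.

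Bins just outside the rule were more numerous than those inside it. In 138070 bins 7 of the other 8 strains shared 1 state and the remaining strain carried the state of C57BL/6J. That strain was PWK/PhJ in 25638 bins, WSB/EiJ in 23731, CAST/EiJ in 17854, 129S1/SvImJ in 16472, A/J in 15391, NOD/ShiLtJ in 13641, DBA/2J in 13297 and NZO/HlLtJ in 12046. In a further 14937 bins 7 of the 8 agreed, and the eighth and C57BL/6J each carried a different state.

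Where the other strains were in state 14, C57BL/6J had 66.65% of its private bins, or 53067, against 61.25% to 85.82% in the private bins of the other strains (exact permutation p = 0.556). Of the 7562613 bins in which the other 8 strains agreed, and which the rule could have called, 90.93% were in state 14 in those strains. Within them 0.7717% were private to C57BL/6J, against 4.137% where the others agreed on state 13 and 1.053% over all such bins. In 20.15%, or 16047 bins, C57BL/6J itself was in state 14, against 6.716% to 26.06% elsewhere (exact permutation p = 0.778). In the remaining 13.20%, or 10509 bins, both were outside state 14. Of the 182 possible changes of state 90 were seen, and 3 of them held 77.54% of the bins.

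The most frequent change was from a shared state 14 to state 13, which accounted for 27474 bins or 34.51%. It took 39.39% to 73.01% of the private bins of each other strain, so C57BL/6J was the lowest of the 9 (exact permutation p = 0.333). Its bins formed 10188 runs, a run being a stretch of adjacent private bins with the same pair of states, and the longest was 7600 bp. The opposite change, from 13 to 14, held 13647 bins or 17.14%, with a range of 4.307% to 21.14% in the other strains. The other strains agreed on state 13 in 336540 bins and on state 14 in 6876717, so per such bin the opposite change was the more frequent. Genome-wide, 9.398% of the autosomal bins of C57BL/6J were in state 13, the lowest share of the 9 strains (others 9.445% to 13.10%, exact permutation p = 0.333).

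State 4 was the second destination. C57BL/6J was in state 4 and the others in state 14 in 20617 bins or 25.89%, against 3.964% in PWK/PhJ to 24.64% in 129S1/SvImJ. C57BL/6J was the highest of the 9 strains in this share, at the smallest p the design allows (exact permutation p = 0.111). It was not the highest in number, since the share of 129S1/SvImJ was taken over 104835 private bins and that of C57BL/6J over 79623. The opposite change, from 4 to 14, held 748 bins. The other strains agreed on state 4 in 40130 bins and on state 14 in 6876717, so per such bin the opposite change was the more frequent. The runs from 14 to 4 had a mean of 683.7 bp and reached 5800 bp. Of all state 4 bins of C57BL/6J 5.455% were private, the highest share of any of its states, against 2.387% of its state 13 bins and 0.1666% of its state 14 bins. The genome-wide share of state 4 was 3.209% in C57BL/6J, below CAST/EiJ and 129S1/SvImJ and above the rest (others 1.895% to 3.488%).

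The most frequent change between states outside 14 was from 1 to 2, in 3741 bins or 4.698%, and the reverse was seen in 335 bins. The share was 0.2793% to 1.498% in the private bins of the other strains, none of which reached that of C57BL/6J (exact permutation p = 0.111). In number C57BL/6J was not the highest, since the 1.498% of PWK/PhJ was taken over 561176 private bins and the 4.698% over 79623. The C57BL/6J share was 2.519% where no other strain carried its state in a neighbouring bin, and 9.137% with states 13 and 14 merged, where PWK/PhJ had 6.661%. State 2 itself covered 2.685% of the autosomal bins of C57BL/6J and 1.931% to 2.655% of those of the other strains, again with C57BL/6J the highest (exact permutation p = 0.111). State 1 covered 2.332% in C57BL/6J and 2.277% to 2.818% elsewhere. The part of these genome-wide shares in the private changes was not tested.

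**Figure D2:**
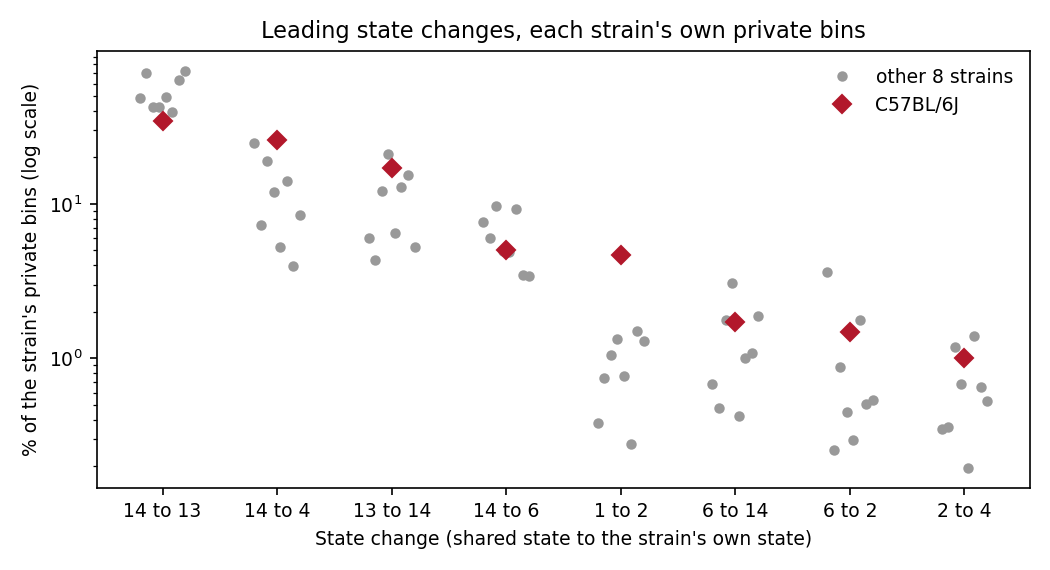
The 8 most frequent state changes of C57BL/6J (x axis, shared state to the strain's own state) as a percentage of each strain's own private bins (y axis, log scale), with C57BL/6J as a diamond and each other strain as a point. C57BL/6J is the lowest for 14 to 13, at 34.51%, and the highest for 14 to 4, at 25.89%, and for 1 to 2, at 4.698%.

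Runs of the other changes were mostly short. The change from 14 to 6 held 4018 bins in 3248 runs, of which 85.65% were a single bin. The changes from 6 to 14 and from 6 to 2 held 1378 and 1186 bins. Changes among the states common at gene starts were rare but lay close to genes: of 332 bins from state 3 to state 1, 59.64% were within 1 kb of a listed start, as were 50.38% of 262 bins from 1 to 3 and 21.30% of 751 bins from 8 to 1. For comparison, 2.143% of all private bins were within 1 kb of a listed start. Of all bins of states 3, 1 and 8 the share was 58.11%, 15.55% and 13.28% (means of 9 strains). For the changes between 3 and 1 the closeness to starts was thus near that of state 3 itself.

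**Figure D3:**
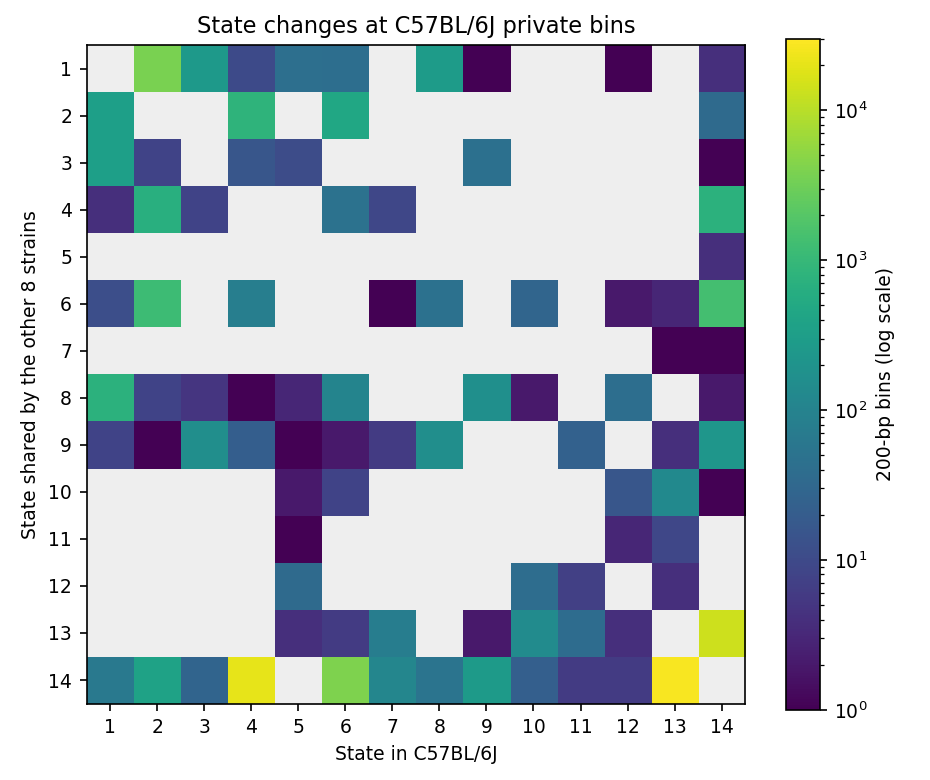
Number of C57BL/6J private bins (colour, log scale) for each state shared by the other 8 strains (rows) and each state of C57BL/6J (columns), with grey for changes not seen. The brightest cells are 14 to 13, 14 to 4 and 13 to 14, with 27474, 20617 and 13647 bins.

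Private runs were short. The 33792 runs had a median of 400 bp and a mean of 471.3 bp, and 16871 of them, 49.93%, were 1 bin long. These single bins held 21.19% of all private bins. The other strains' runs had means of 459.1 bp in NZO/HlLtJ to 821.3 bp in PWK/PhJ (exact permutation p = 0.444). In C57BL/6J 4210 runs reached 1000 bp, 643 reached 2000 bp and 23 reached 4000 bp. The longest run, 7600 bp, was shorter than the longest of every other strain, which measured 7800 bp in 129S1/SvImJ to 20800 bp in PWK/PhJ (exact permutation p = 0.333).

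Most runs were parts of longer C57BL/6J segments. A run filled a whole segment of C57BL/6J in 7639 cases, which is 22.61% of the runs and 1.392% of its 548884 autosomal segments. The other strains' runs filled whole segments in 25.03% to 35.96% of cases, and C57BL/6J was the lowest (exact permutation p = 0.333). In 73.08% of runs at least 1 other strain carried the C57BL/6J state elsewhere within the same C57BL/6J segment, against 57.80% to 71.48% elsewhere (exact permutation p = 0.333). Wholly private segments were most numerous in state 13, with 2794 segments or 3.597% of its segments, followed by state 6 with 1632 and state 4 with 1543 or 2.850%. The changes differed in this: a whole segment was made by 47.38% of runs from 14 to 6, 27.39% from 14 to 13 and 24.11% from 14 to 4, but by 7.242% from 13 to 14. Segments of C57BL/6J also differed in length, with medians of 400 bp in state 6, 1600 bp in state 13, 1000 bp in state 4 and 5000 bp in state 14. A short run fills a short segment more easily, so these shares are not comparable between states.

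The private share differed among chromosomes. It ran from 0.4974% on chromosome 3 to 0.9575% on chromosome 19, with 0.8345% on chromosome 11. Across the 19 chromosomes it went with the share of bins outside state 14 in at least 1 strain (Pearson r = 0.897, Spearman rho = 0.767, as a description, since both come from the same segmentations). Taken over those marked bins alone, the private share ran from 1.239% on chromosome 18 to 1.646% on chromosome 14. In windows of 100 kb, 9748 of 24620 held no private bin, 29 held 50 or more, and the richest 247 windows held 10.96% of all private bins.

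The longest runs were taken next. The run of 7600 bp (chr15:88173401-88181000) was in state 13 in C57BL/6J and 14 elsewhere, inside a C57BL/6J segment of 28000 bp, and its nearest gene was Tafa5, a secreted chemokine-like protein, at 414.0 kb. With 5 kb added on each side, 92.05% of the bins were in state 13 in C57BL/6J and at most 44.32% in another strain, PWK/PhJ. A run of 5800 bp in state 2 (chr19:17316201-17322000) was a whole segment 4.141 kb from Gcnt1, which builds branched O-glycans. A second run of 5800 bp was in state 4 (chr8:122704001-122709800), 4.669 kb from Cbfa2t3, a transcriptional co-repressor. Lnp1 held a whole private segment of state 13 of 5600 bp (chr16:56909201-56914800), and with its flanks no other strain had a bin of state 13 there.

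The other runs among the longest repeated these changes. State 13 stood against 14 over 5400 bp (chr9:115579201-115584600), 268.7 kb from Stt3b, a subunit of the enzyme that adds N-glycans. State 4 stood against 14 over 5000 bp (chr8:89253801-89258800), 209.6 kb from Sall1, a developmental zinc-finger factor, and over 4800 bp (chr6:115874801-115879600) in Ift122, which is needed for transport in cilia. State 14 stood against 13 over 5400 bp (chr5:15658401-15663800), 34.54 kb from Speer4d. At 4400 bp 3 runs tied for the next place, near Dcdc2c, Tmem254b and Gm17019.

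Some of the densest windows held copies of gene families. The window with the most private bins, 112 from 13 to 14, held Speer4d (chr5:15600001-15700000), and a nearby window with 87 of that change held Speer4e (chr5:14900001-15000000). Adjoining windows with 87 and 73 private bins, mostly from 14 to 4, held Tmem254c and Cphx2 (chr14:26000001-26100000) and Duxbl2 (chr14:26100001-26200000). In near-identical copies reads cannot always be assigned to 1 place, so these windows are uncertain. Of the other dense windows, 106 bins fell at St3gal4, 89 at Ercc6l2, a DNA repair helicase (84 from 14 to 4), 77 at Eps8 and 72 at Disp3, while a window on chromosome 13 with 105 bins from 14 to 13 (chr13:69900001-70000000) held no protein-coding gene.

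St3gal4, which adds sialic acid to glycans on secreted and cell-surface proteins, held the longest unbroken private stretch of the autosomes. The gene (chr9:35046576-35116864, minus strand) spans 353 bins, of which 103 were private, or 29.18%. Of these 61 changed from 14 to 2, 20 from 14 to 6 and 18 from 14 to 4. In C57BL/6J no bin of the gene was in state 14, whereas in the other strains 28.61%, at the median 30.03% and at most 33.14% were. State 2 covered 52.41% of the gene in C57BL/6J, against 18.13%, a median of 25.36% and at most 37.39% elsewhere. The strains did not overlap in either state. The gene was named for its private bins, and these enter both shares, so the gap is no separate support.

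The 8 other strains shared nearly the same borders there. All 8 were in state 14 together in 99 bins that lay between 25.2 and 46.6 kb from the gene's left end (chr9:35071801-35093200), a span of 107 bins, and all 99 were private. Their longest single stretch of state 14 within the gene was 21.4 kb in A/J, DBA/2J and NOD/ShiLtJ, 19.8 kb in WSB/EiJ, 19.6 kb in CAST/EiJ and 17.8 kb in PWK/PhJ. In 129S1/SvImJ it ran from 25.2 to 45.2 kb, and in NZO/HlLtJ from 32.6 to 46.6 kb. Short segments of state 6 interrupted the span in NZO/HlLtJ, 129S1/SvImJ, CAST/EiJ, WSB/EiJ and PWK/PhJ, and in PWK/PhJ also a segment of state 4. The segmentations hold no read coverage, and whether reads of the other 8 strains map to this span was not tested, so their shared state 14 there and the private bins that rest on it are uncertain. Whatever its state, the unbroken private stretch measured 12200 bp (chr9:35079201-35091400), and it was the only 1 of 33236 such stretches to reach 10000 bp. A second stretch of 5200 bp (chr9:35073801-35079000) preceded it, with 1 bin between them that was not private. Within the stretch of 12200 bp lay a run of 5200 bp in state 2 (chr9:35084401-35089600), a whole segment and among the longest runs. State 1, which lay mostly outside this span, covered 22.95% of the gene in C57BL/6J and 20.68% to 37.96% in the others.

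Eps8 and Tmem260 had many shorter private stretches. Eps8 (chr6:137477245-137649397), an actin-capping adaptor of growth factor signalling, had 103 private bins of 861, of which 101 changed from 14 to 13. State 13 covered 26.71% of the gene in C57BL/6J, 11.73% in PWK/PhJ, 7.549% in WSB/EiJ and less than 1% in the other 6 strains. State 1 was at 0% in C57BL/6J and at 0.6969% to 3.949% elsewhere. State 4 was at 0.9292%, against a median of 6.155% and a range of 0.2323% to 17.07%. In Tmem260, a transmembrane protein that adds mannose to receptors, state 4 covered 18.91% of 571 bins in C57BL/6J, against 2.627%, a median of 3.853% and at most 5.779% elsewhere, and the longest private run there was 4000 bp (chr14:48471001-48475000). For this gene state 14 covered 60.95% in C57BL/6J and 72.50% to 76.71% in the other strains. The private bins of Eps8 and Tmem260 enter their shares of states 13, 4 and 14, so the gaps are no separate support.

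**Figure D4:**
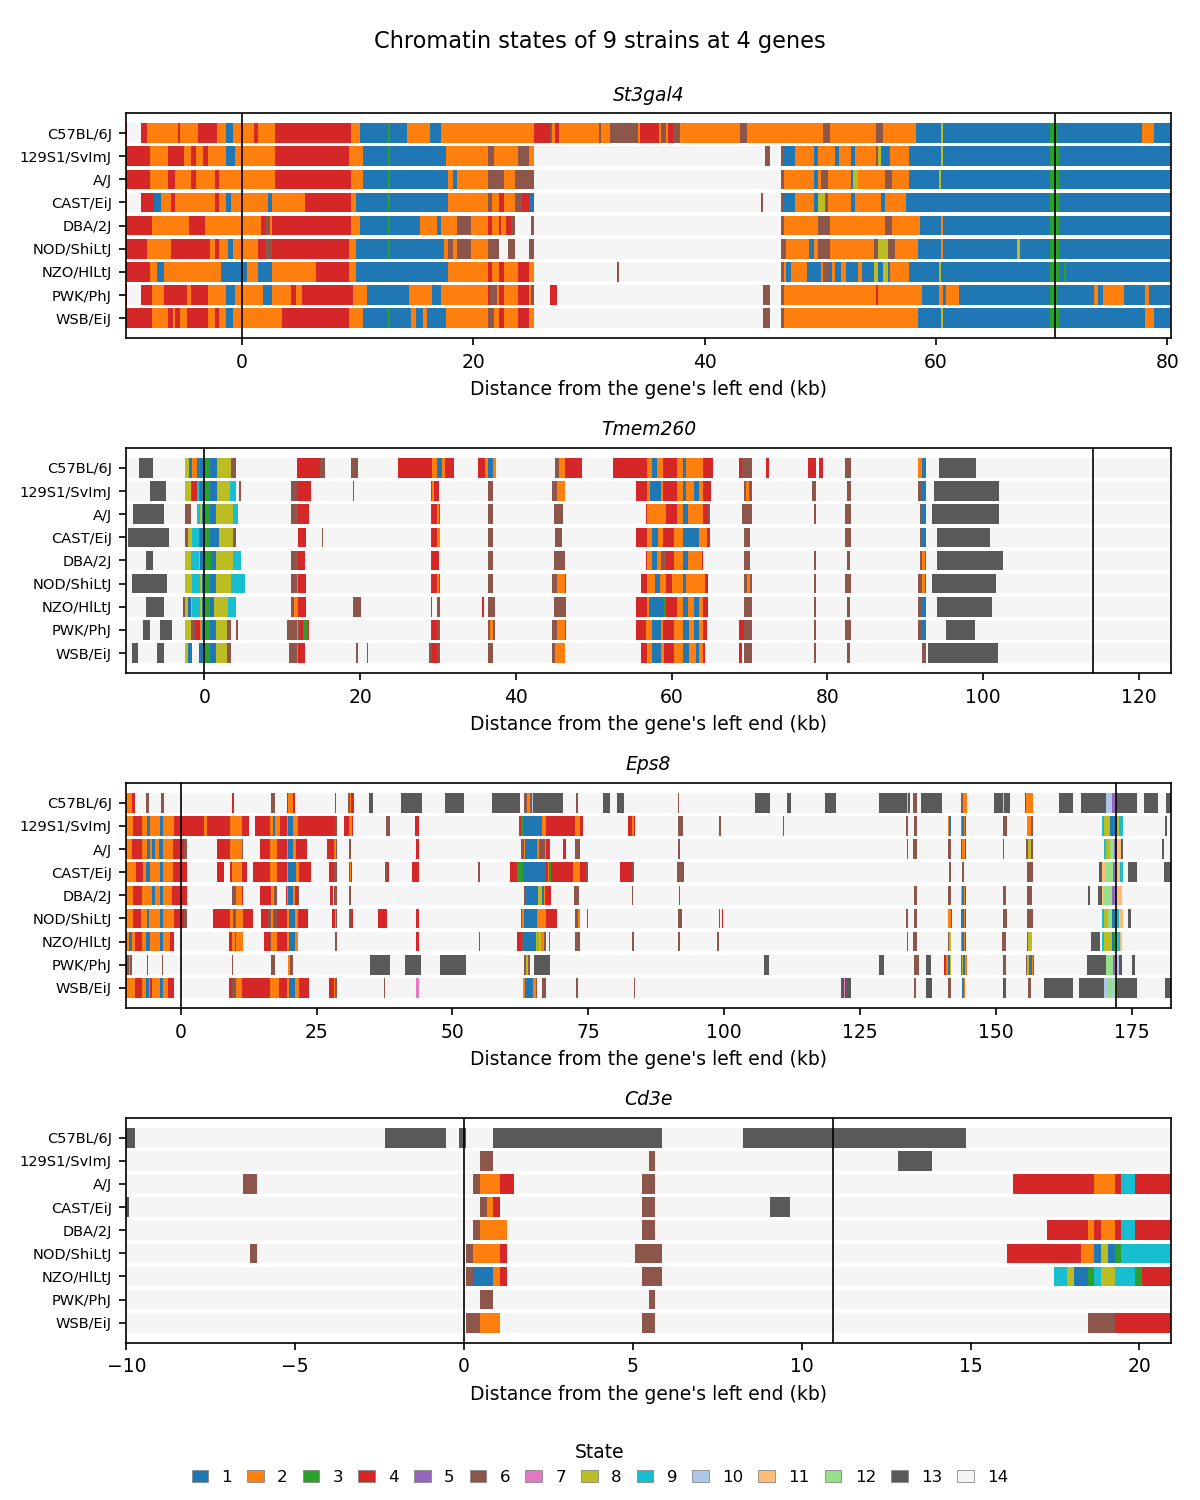
Chromatin states (colours) of the 9 strains along 4 genes, with distance from the gene's left end in kb on the x axis and black lines at the gene's ends. In St3gal4 the other strains are mostly in state 14 from about 25.2 to 46.6 kb and C57BL/6J is not. Tmem260 has more of state 4 in C57BL/6J, and Eps8 and Cd3e have more of state 13.

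Not every gene with many private bins stood apart as a whole. Cdh4, a cadherin of nerve and muscle, had the most private bins of any gene body, 110 of 2285, all from 14 to 13. This rank was not stable: without NZO/HlLtJ Cdh4 had 172, without PWK/PhJ Lsamp had 220, Rbfox1 181 and Eps8 167, and with the neighbouring-bin rule St3gal4 and Eps8, with 96 and 94, passed the 82 of Cdh4. State 13 covered 26.17% of it in C57BL/6J, but also 27.22% in NZO/HlLtJ, 22.36% in DBA/2J and 17.94% in WSB/EiJ, with 0.2188% to 1.707% in the other 5 strains. Rbfox1, a neuronal splicing regulator, had 105 private bins of 7640, and its state 13 share of 37.80% lay within the 1.374% to 54.92% of the others. The neuronal genes Lsamp, Dlg2 and Cacna2d3, with 86, 85 and 83 private bins, are also long. The last 3 genes by this count, Gm37013, Gm38666 and Gm38667, with 85, 83 and 83, overlap each other on chromosome 18 and share their bins. Their main change was from 13 to 14.

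Private bins lay within the body of 6988 of 20665 autosomal protein-coding genes (33.8%) and within 1 kb of a listed start of 1161 of the 16457 genes that had one (7.05%). The windows at starts held 2.143% of the private bins, gene bodies 41.68% and the rest of the genome 56.18%. Over all autosomal bins these shares were 1.564%, 39.01% and 59.43%, and over bins outside state 14 in at least 1 strain 2.934%, 42.87% and 54.20%. At the starts of 837 genes a single bin was private, and 43 genes had 5 or more. No change held more than 14.54% of the private bins at starts: of 1706 private bins there, each counted once, 248 were from 14 to 13, 235 from 14 to 4, 198 from 3 to 1, 162 from 13 to 14, 160 from 8 to 1 and 132 from 1 to 3.

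At 3 genes the whole window at the start, 11 bins, was private. Cd3e (chr9:44998735-45009663), whose promoter is printed above, was in state 13 in C57BL/6J and in state 14 in all 8 others. Over its body of 56 bins, state 13 covered 71.43% in C57BL/6J, 5.357% in CAST/EiJ and 0% in the other 7 strains. The private bins of Cd3e enter that share, so it is no separate support. The same 100-kb window held Mpzl2, Mpzl3 and Jaml, and 43 of its 57 private bins were from 14 to 13. Cphx2 (chr14:26081312-26096131), a homeobox gene, was in state 4 against 14, in 1 of the windows of multi-copy genes. Gm52215 (chr15:91041908-91049901) was in state 2 in 9 bins and state 6 in 2, where all others were in state 1.

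The other starts with many private bins showed 3 patterns. State 4 took the place of 14 in windows that also held states 1 and 3 in every strain, at Iffo2, an intermediate filament family protein, and Mau2, a cohesin loader, each with 8 private bins of 22. The state 4 share of the Iffo2 window was 11 of 22 bins in C57BL/6J and at most 3 of 22, in A/J, in the others, and that of Mau2 was 9 of 22 and at most 2 of 22, in 129S1/SvImJ. Nxnl1 was in state 4 in all 11 bins, against 18.18% in CAST/EiJ and 0% in the other 7 strains. Shisa5, a p53 target of the endoplasmic reticulum, and Gsn, the actin-severing protein gelsolin, had 8 of 51 and 7 of 33 bins private, mainly of this change. State 13 took the place of 14 at Prss34, in all 11 bins in C57BL/6J and in 27.27% of them in 129S1/SvImJ. The third pattern was state 14 in place of 13, at the odorant receptor gene Olfr570 (8 of 11 bins), Skint8 (8 of 11), Lrrc4c, a synaptic adhesion protein (7 of 11), Spz1, a sperm transcription factor (7 of 11), Wdr17 (10 of 44) and, in part, the axon guidance receptor Robo2 (4 of its 7 private bins). At Olfr570 and Lrrc4c the other 8 strains were in state 13 in every bin of the window. These genes were named for their private bins, which enter the window shares given here, so the gaps between strains are no separate support.

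Genes of hepatocyte function were then taken by list, and counts are read beside the background of 7.05% for starts and 33.8% for bodies. Of 17 hepatocyte transcription factors with a listed start 1 was touched there, Foxa2, a pioneer factor of liver development, with 2 bins from 3 to 1. In gene bodies 14 of 20 were touched, among them Esr1, the oestrogen receptor, with 26 bins of 1970, Zhx2, a repressor of fetal liver genes, with 13 of 727, and Nr5a2, a regulator of bile acid synthesis, with 9 of 591. These genes are long, with a median of 37.11 kb against 17.49 kb over all genes. Private bins were 1.265% of their body bins, against 0.6961% of all body bins. None of 16 starts of plasma protein genes was touched, and 7 of 20 bodies were, with 5 bins each in Apoh and Plg, the genes of apolipoprotein H and plasminogen.

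Metabolic genes were counted next. Of 20 drug and steroid metabolism genes only Cyp2c29 had a private bin, with 2 in its body, and no start of 17 was touched. Of 13 lipid and cholesterol genes with a listed start 3 were touched, by 1 bin each: Acaca (1 to 2) and Hmgcs1 (1 to 3), which make malonyl-CoA and HMG-CoA, and Srebf1 (3 to 1), the regulator of fatty acid synthesis. Elovl6, a fatty acid elongase, had 11 private bins of 532, and state 14 covered 2.444% of it in C57BL/6J against 6.391% to 24.62% in the others. The private bins enter that share. Of 15 bile acid genes 4 were touched at the start, Cyp2c70, which makes muricholic acids, and Akr1d1, a bile acid reductase, by 2 bins each, and the sterol transporters Abcg5 and Abcg8 by 1 bin that they share. Among 19 glucose and amino acid genes 10 had a private bin in the body. Cps1, the first enzyme of the urea cycle, had 13, of which 8 were from 2 to 6. Glul, glutamine synthetase, was touched at the start by 1 bin.

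Clock, inflammatory and other genes followed. Npas2 and Tef were the 2 of 17 clock genes touched there (11.76%), by 1 bin each, and the nuclear receptor gene Rora had 41 of 3675 body bins, 20 of them from 14 to 4 and 11 from 1 to 2. Of 13 acute phase and complement genes Crp, C-reactive protein, was touched at the start by 1 bin, and C8a and Masp1 had 14 and 11 private body bins. No start of 19 interferon and antigen presentation genes or of 14 developmental transcription factors was touched, and 0.3356% and 0.3635% of their body bins were private. Of 15 Kupffer cell and leukocyte markers Cd3e alone was touched at the start. Private bins were 2.974% of body bins in that list, which held 75, of which 31 were in Cd3e and 13 in Ptprc, the leukocyte common antigen, all 13 from 13 to 14. Of the 56 bins at the starts of the 5 markers checked above, 30.36% were in state 13 in C57BL/6J and 0% to 23.21% in the others. Cd3e is among these 5, and its 11 bins, all in state 13 in C57BL/6J and in state 14 elsewhere, are counted in that share. The figure is thus no separate value for the other markers, and the part of other cell types in the result at Cd3e was not tested. None of 12 endothelial and 12 stellate or bile duct starts was touched. These lists were chosen with results of these data known, and the counts are a description with no test.

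**Figure D5:**
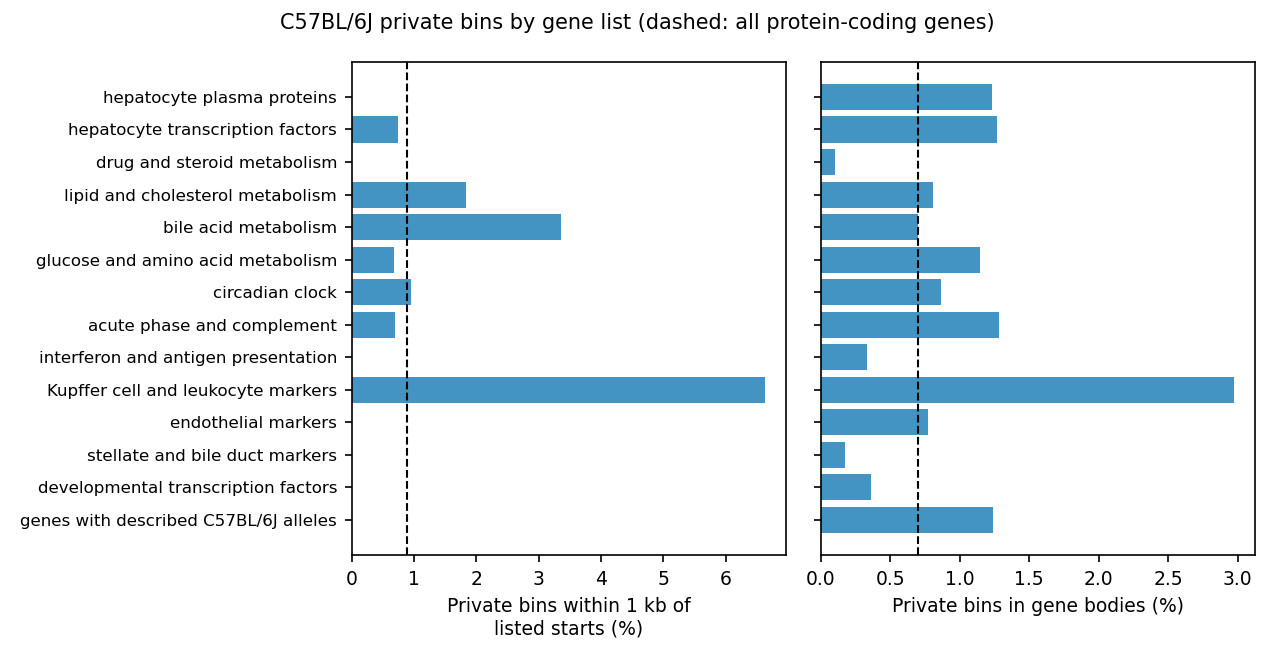
Share of bins that are private to C57BL/6J within 1 kb of listed starts (left) and in gene bodies (right), in percent, for 14 gene lists, with the dashed line at the value over all autosomal protein-coding genes (0.8857% and 0.6961%). The longest bars belong to the Kupffer cell and leukocyte markers, at 6.627% and 2.974%, where Cd3e gave all 11 private bins at starts.

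Genes in which C57BL/6J or its relatives are known to carry a particular allele were looked at in full. Of 9 such autosomal genes found, 6 had a listed start and none was touched there, against 7.05% of starts over all genes. In bodies 5 of 9 were touched (55.56%), against 33.8% over all genes. These genes are long, with a median of 31.13 kb against 17.49 kb over all genes. Nlrp12, an innate immune sensor, had 14 private bins of 156, all from 14 to 4, and state 4 covered 56.41% of it in C57BL/6J, against 3.846%, a median of 18.91% and at most 47.44% elsewhere. The 14 private bins enter that share, so the gap is no separate support. Cdh23, a cadherin of hair cells, had 23 of 1970, with a state 13 share of 25.18% inside the range of 3.959% to 30.76% of the other strains. Ahr, the dioxin receptor, had 6 of 186, all from 14 to 6, also with a state 6 share, 7.527%, inside the others' range of 4.301% to 15.59%. Gabra2, a GABA receptor subunit, had 2, and Nnt, the mitochondrial transhydrogenase, had 1. No private bin lay in Apoa2, Ifi202b, Cox7a2l or Entpd4.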

How the data were processed

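ChIP-seq libraries of 4 histone marks and input were labelled by strain, and files and comparisons were grouped by that label. Per the file headers, the authors deposited 1 segmentation per strain, whose intervals carry a state number from 1 to 14. This number is a category, not a count, signal or score. The submitters' processing notes name mm10, FastQC 0.11.5 and MACS 1.4.2. The aligner, the segmentation tool and how the mice of a strain were combined are not given in the sources used here, and depth is unknown. All strains' segmentations were in 1 coordinate system.

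Intervals were written as states of 200-bp bins. Private bins, runs and genes were counted in Python 3.11.15 with numpy 2.4.6, pandas 2.3.3 and scipy 1.17.1, and figures were drawn with matplotlib 3.10.9. On simulated segmentations of 307157 bins the counting recovered 100.0% of 3048 planted private bins. Genes came from RefSeq on GRCm38.p6, the assembly named mm10. Starts and strands came from its promoter table, in which 16457 of 20665 autosomal protein-coding genes were matched. The other 4208 genes, those of chromosome 18 included, enter only counts of gene bodies. The interval for percentages that is used to judge alternatives is an exact binomial 95% interval over bins.

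Genes were named by a rule: the 15 with most private bins at the start, those at the 10 longest runs, the 10 with most private bins in the body, and the listed genes with a private bin at the start. Genes of the lists named for their bodies, and Tmem260, Ercc6l2, Disp3 and the genes of the densest windows, were chosen after their values were seen. The private bins, lists and rules were chosen with earlier results of these data known. The only test over samples was an exact two-sided permutation of the strain label. Alternatives were isolated bins left out, a neighbouring-bin tolerance, 1000-bp bins, states 13 and 14 merged, chromosome X added, other gene windows and each other strain left out. Some listed genes are not reported here.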

Additional observations from a re-analysis of the deposited data

Results flagged for a closer look

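In 3 of 18 sets of 9 strain values the highest strain stood far from the rest (Dixon's criterion at the 95% level). Chance flags about 1 in 20 sets, which is about 0.90 of 18, if values and sets are independent. The 9 strain values are not, and several sets are shares of the same private bins. The 3 flags are therefore a description, with no reading against 0.90. The share of C57BL/6J private bins that changed from state 1 to state 2 was 4.698%, and the next strain was PWK/PhJ at 1.498%. With the neighbouring-bin rule these were 2.519% and 0.9652%, and with states 13 and 14 merged 9.137% and 6.661%. PWK/PhJ stood apart in the share of all autosomal bins that were private, at 4.557%, with CAST/EiJ next at 2.352%. In 129S1/SvImJ the share of its own private bins that changed from state 6 to state 2 was 3.632%, with NZO/HlLtJ next at 1.780% and C57BL/6J at 1.490%.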

How the results depend on the processing

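The deposited data hold 1 segmentation per strain and no value per mouse, so variation between mice and depth were not measured. Strain effects and preparation of a strain's libraries cannot be told apart. All segmentations were in the coordinates of the reference genome, which was assembled from the strain studied here. Whether reads of the other strains align to it less well was not tested. The question bears on the 66.65% of private bins with the other strains in state 14, and on the ranking of strains by private bins. No paired analysis was possible because the mouse numbers in the labels have no counterpart in the segmentations.

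The 79623 private bins became 63277 without isolated bins, 76160 with 1000-bp bins and 81561 with chromosome X, 50862 where no other strain carried the C57BL/6J state in a neighbouring bin, and 40943 with states 13 and 14 merged. Leaving out 1 other strain, so that 7 had to share a state, gave 92906 (without NZO/HlLtJ) to 108771 (without PWK/PhJ). The share with the others in state 14 was 71.25% without isolated bins, 74.40% with the neighbour rule and 69.14% with the merge, and 56.83% to 67.20% with a strain left out. The share with C57BL/6J in state 14 was 20.93%, 18.25% and 6.233% in that order, 19.69% with chromosome X, and 19.58% to 28.27% with a strain left out. With the merge, state 14 stands for states 13 and 14 together, and changes between them drop out. The median run was 1000 bp in 1000-bp bins, 200 bp with the merge or chromosome X, and 200 to 400 bp with a strain left out.

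Genes touched at the start numbered 633 with windows of 500 bp, 2111 with 2 kb, 6988 over whole bodies, 351 without isolated bins, and 1351 to 1579 with a strain left out. Windows at both ends of every gene, an alternative added after seeing the data, gave 2011.

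The difference of C57BL/6J from the mean of the other strains stayed negative under the 5 alternatives run, from -1.150 to -0.2709 percentage points (exact permutation p = 0.222 to 0.444), and with the merge C57BL/6J ranked second lowest. It was the highest strain in the shares of 14 to 4 and of 1 to 2 under these 5, but with the merge by 52.64% against 52.63% for 14 to 4. Of 25 gene values named by count, 25 stayed within 1.5 times without isolated bins, 18 with the neighbour rule and 8 with the merge. With a strain left out, 4 moved further without PWK/PhJ (Lsamp 86 to 220, Rbfox1 105 to 181, Eps8 103 to 167, Dlg2 85 to 129) and 4 without NOD/ShiLtJ (Robo2 7 to 12, Gm37013 85 to 150, Gm38666 and Gm38667 83 to 148). The last 3 moved to 182, 180 and 180 without WSB/EiJ, Gsn from 7 to 11 without A/J, Rbfox1 to 161 without CAST/EiJ and Cdh4 from 110 to 172 without NZO/HlLtJ. None of the 25 moved without 129S1/SvImJ or DBA/2J. The causes were not tested.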
